A study of Homo sapiens with 16 samples.

Results

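Among the protein-coding genes of LNCaP prostate cancer cells, 15 were expressed in wild-type (WT) cells and close to silent in cells with a double knockout of RB and p53 (DKO). They were chosen on their level in CPM, a gene's read count per 1000000 counts of its library. A gene had to average at least 2 CPM over the 8 WT libraries and at most 0.2 CPM over the 8 DKO libraries, and Y-linked genes were left out. Of the 60676 genes in the count tables, 19 protein-coding genes met both limits. ETV1, CTNNA3, PCDH7, XAF1, GTSF1 and SOX11 were set aside beforehand, and 4 of these 6 (ETV1, CTNNA3, XAF1 and GTSF1) met the limits, which left TCEAL9, ZC3HAV1L, SPAG16, LACC1, LPCAT2, XKR6, CNTNAP4, CCDC122, LRRTM3, MBNL2, CXCL10, BCAN, CCDC74A, CNTN3 and PRELP. Since the DKO and WT means chose these genes, their difference between the genotypes is a description and carries no test. The difference between drug and solvent within a genotype was not used to choose them, though the limit on the DKO mean leaves little room for a difference in CPM in DKO.

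LNCaP is an androgen-responsive line from a metastasis of prostate adenocarcinoma. Total RNA was sequenced after depletion of ribosomal RNA from RB-p53 DKO cells, made with CRISPR-Cas9, and from WT cells. Each genotype was kept for 6 days in 50 µM enzalutamide (EZ), an antiandrogen drug, or in an equal volume of the solvent DMSO. The groups were DKO EZ, DKO DMSO, WT EZ and WT DMSO, with 4 replicates each and 16 libraries in all. Whether the DKO cells are a clone or a pool, and whether replicates are separate cultures, is not given in the sources used here; the spread behind each p-value is that between these libraries and may be technical.

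RB holds back E2F transcription factors, which drive genes of the cell cycle, and combined loss of RB and p53 in prostate cancer is known to go with loss of dependence on androgen signalling. Several of the 15 genes, such as neuronal adhesion proteins and an interferon-induced chemokine, are known for expression that is restricted to certain cell types or depends on a stimulus. In a culture, fewer expressing cells and less RNA per cell cannot be told apart.

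Promoter windows show the start regions of the genes on which the results turn. A window holds the 250 bases before and 50 bases after the start site given by RefSeq (build GRCh38.p14), is written 5′ to 3′ on the gene's own strand, and has each CpG dinucleotide, the site of DNA methylation in promoters, in capitals. TCEAL9 (chrX:103356256-103356555, plus strand) and ZC3HAV1L (chr7:139035993-139036292, minus strand) had the highest WT levels of the 15 per kilobase of exon. LACC1 (chr13:43878928-43879227, plus strand) and CCDC122 (chr13:43879691-43879990, minus strand) start back to back and are the only 2 of the 15 within 1 Mb of each other. LRRTM3 (chr10:66925786-66926085, plus strand) and CXCL10 (chr4:76023448-76023747, minus strand) varied most among the WT libraries.
TCEAL9: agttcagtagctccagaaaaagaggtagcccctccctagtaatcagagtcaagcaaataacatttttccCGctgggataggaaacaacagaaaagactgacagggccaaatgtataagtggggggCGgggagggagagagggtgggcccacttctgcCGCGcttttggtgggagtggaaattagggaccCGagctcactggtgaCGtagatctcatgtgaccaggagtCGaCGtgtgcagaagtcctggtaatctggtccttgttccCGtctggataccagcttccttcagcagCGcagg
ZC3HAV1L: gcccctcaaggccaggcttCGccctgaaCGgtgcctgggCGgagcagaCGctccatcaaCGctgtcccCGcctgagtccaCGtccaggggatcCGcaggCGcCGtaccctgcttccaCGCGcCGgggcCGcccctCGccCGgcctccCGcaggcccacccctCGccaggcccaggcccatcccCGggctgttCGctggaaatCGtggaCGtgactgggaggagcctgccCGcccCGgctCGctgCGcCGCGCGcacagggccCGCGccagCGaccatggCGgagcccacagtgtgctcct
LACC1: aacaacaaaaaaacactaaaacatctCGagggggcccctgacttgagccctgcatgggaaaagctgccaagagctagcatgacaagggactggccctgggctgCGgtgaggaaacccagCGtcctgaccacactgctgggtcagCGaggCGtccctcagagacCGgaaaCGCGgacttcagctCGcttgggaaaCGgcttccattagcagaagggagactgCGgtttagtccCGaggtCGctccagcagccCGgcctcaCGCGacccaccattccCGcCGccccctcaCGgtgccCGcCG
CCDC122: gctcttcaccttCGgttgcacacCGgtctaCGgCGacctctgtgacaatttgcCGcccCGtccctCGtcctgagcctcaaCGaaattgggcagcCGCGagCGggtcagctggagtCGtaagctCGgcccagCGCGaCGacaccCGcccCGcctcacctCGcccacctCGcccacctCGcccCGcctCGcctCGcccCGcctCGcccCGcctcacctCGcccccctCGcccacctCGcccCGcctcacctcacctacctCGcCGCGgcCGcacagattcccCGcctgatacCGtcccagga
LRRTM3: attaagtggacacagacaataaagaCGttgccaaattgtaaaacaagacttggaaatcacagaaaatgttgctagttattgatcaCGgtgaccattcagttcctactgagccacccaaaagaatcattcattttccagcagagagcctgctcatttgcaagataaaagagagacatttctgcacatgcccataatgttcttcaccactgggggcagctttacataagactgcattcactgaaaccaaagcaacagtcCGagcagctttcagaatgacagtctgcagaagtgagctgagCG
CXCL10: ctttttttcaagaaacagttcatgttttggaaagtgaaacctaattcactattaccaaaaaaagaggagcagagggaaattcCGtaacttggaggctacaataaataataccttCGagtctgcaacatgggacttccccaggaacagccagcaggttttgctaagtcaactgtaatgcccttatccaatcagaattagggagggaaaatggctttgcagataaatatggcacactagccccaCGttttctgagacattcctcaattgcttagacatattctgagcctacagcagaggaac

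The windows ran from CpG-rich to CpG-poor. Of the 15 genes, 12 matched a RefSeq window, and LPCAT2, XKR6 and CCDC74A are given by name only. Of those shown above, CCDC122 held 37 CpG, ZC3HAV1L 33, LACC1 21, TCEAL9 10, LRRTM3 4 and CXCL10 3. Among the others, CNTN3 held 43 CpG, BCAN 31, SPAG16 26, CNTNAP4 13, MBNL2 5 and PRELP 1. The median was 17 CpG for the 12 genes and 25 over the 11522 windows of tested protein-coding genes, and the median GC content was 60.0% and 65.0% for the same sets. The RefSeq start sites of CNTN3, MBNL2 and BCAN lie 93519, 899 and 727 bases away from the start sites in the GENCODE v29 annotation, so they may not be the starts used in these cells.

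**Figure D1:**
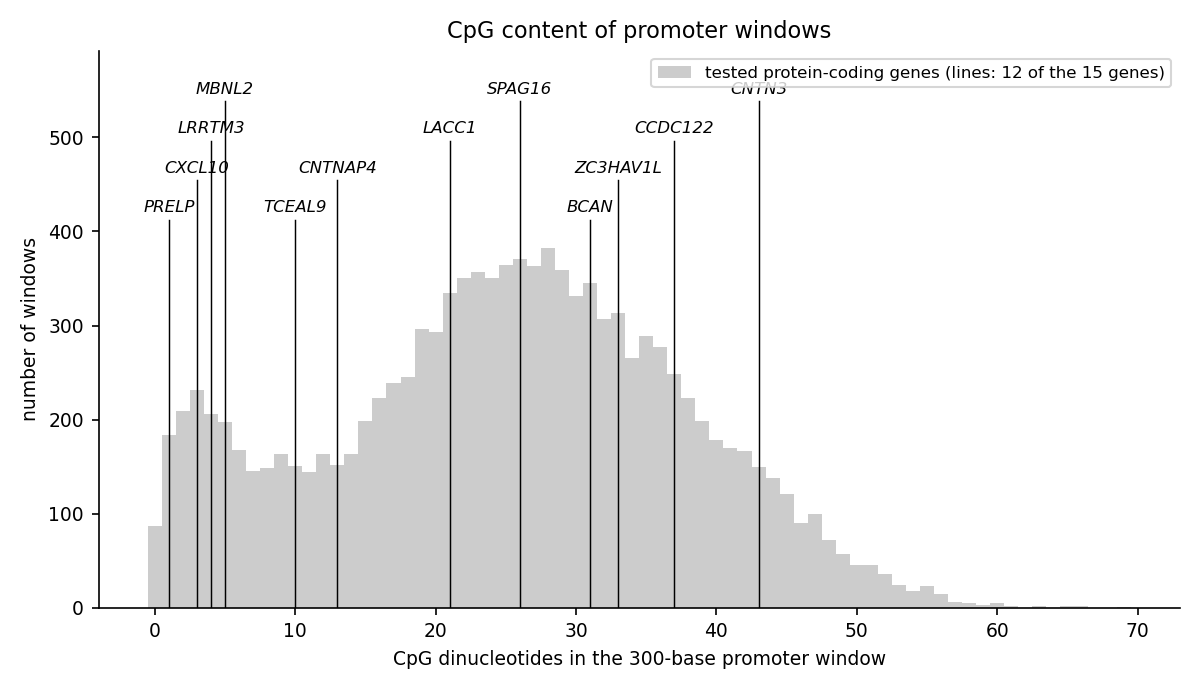
Number of CpG dinucleotides per 300-base promoter window (horizontal axis) against the number of tested protein-coding genes with that count (vertical axis, grey bars, 11522 windows); black lines mark the 12 matched genes. The 12 genes spread over both humps of the distribution, with PRELP at 1 CpG and CNTN3 at 43 CpG.

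Short motifs were searched on both strands, allowing overlaps, in the same windows. GGGCGG, the core of the Sp1 motif, was found in 7 of the 12 windows (TCEAL9, ZC3HAV1L, SPAG16, LACC1, CCDC122, BCAN and CNTN3) and in 67.7% of all windows. CCAAT was found in 5 of the 12 (CNTNAP4, CCDC122, MBNL2, CXCL10 and PRELP) and in 36.7% of all. TTTCCCGC, an E2F-type motif, was found in TCEAL9 alone among the 12 and in 2.53% of all windows, and TTTGGCGC and TATAAA in none of the 12, against 1.08% and 6.47% of all windows. These are matches of letters and say nothing of what binds there.

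Library totals lay between 11823438 and 47678648 counts. RB1 had 9.88 to 14.4 CPM in DKO libraries and 79.4 to 118 CPM in WT libraries. Of the LNCaP and luminal prostate markers, KLK2, KLK3, TMPRSS2, FOLH1 and STEAP2 were lower in DKO with each treatment, and HOXB13, KRT8 and KRT18 did not pass the test with either. The background of lower genes was 9.7% of all tested genes in DMSO and 11.4% in EZ. Summed markers of other cell types were higher in DKO for some lists. Those of other epithelial lines summed to 5.97 to 94.7 CPM in DKO and 1.61 to 3.87 CPM in WT libraries. Of these 9 markers 5 were tested, and ALB, VIL1 and KRT20 were higher in DKO with each treatment. The background of higher genes was 8.91% in DMSO and 9.29% in EZ. ALB averaged 32.5 CPM in DKO and 0.559 CPM in WT libraries. ALB, with 2.16 to 90.9 CPM in DKO libraries, made up most of the highest sums. ESR1 of the same list was lower in DKO in EZ, with means of 0.0946 CPM in DKO and 0.391 CPM in WT libraries. It had at most 0.244 CPM in DKO libraries and passed the filter on low counts through the WT libraries. A lower level in DKO was thus set by the filter, and the values of ESR1 are a description. Mesenchymal markers summed to 32.6 to 59.0 CPM in DKO and 16.5 to 21.7 CPM in WT libraries. Of these 6 markers 4 were tested, and COL1A1 and LUM were higher with each treatment (same background). In WT libraries LUM averaged 0.231 CPM and KRT20 0.356 CPM. Both passed the filter on low counts through the DKO libraries, where they were higher, so nothing is read from their calls. Endothelial markers summed to 3.28 to 12.2 CPM in DKO and 2.76 to 17.8 CPM in WT libraries, leukocyte markers to 0.254 to 0.708 CPM in DKO and 0.0430 to 0.216 CPM in WT libraries with CD3E at 0 in all, and basal epithelial markers to 0.0420 to 0.894 CPM in DKO and 0.140 to 1.40 CPM in WT libraries. Of the basal markers only KRT14 was tested, and it was called lower in DKO in EZ (log2 fold change -3.17 ± 0.75, adjusted p = 0.00596, edgeR). Its estimate in DMSO was 0.84 ± 0.71. The basal markers summed to at most 0.292 CPM in DKO EZ libraries, so KRT14 passed the filter through other groups. Nothing is read from its call. The part of these markers in the levels of the 15 genes was not tested. The RNA RN7SL1 took at least 0.220% of the counts in 6 libraries, replicates 1 and 2 of both DKO groups and replicate 1 of both WT groups, and at most 0.117% in the other 10. Restricting the choice to those 10 libraries gave 16 genes, the 15 plus LHX6. Of the marker calls, VIL1 and KRT20 were lost there in DMSO and STEAP2 and KRT14 in EZ.

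Summed over the 15 genes, the DKO EZ libraries held 99 reads (0.592 to 1.31 CPM per library) and the DKO DMSO libraries 159 reads (1.28 to 1.83 CPM). The WT EZ libraries held 7387 reads (60.3 to 72.9 CPM) and the WT DMSO libraries 7877 reads (59.6 to 76.8 CPM). The DKO and WT libraries did not overlap for 14 of the 15 genes, and the highest DKO value of any of them was 0.498 CPM, for CCDC74A. Over all 21810 tested genes, 2.17% were lower in DKO without overlap, a share that stands beside the 14 as background and from which nothing is read, since the choice fixed the direction. For 6 genes (TCEAL9, LACC1, ZC3HAV1L, CCDC122, LRRTM3 and CNTN3) no more than 3 reads were counted over all 8 DKO libraries. The other 9 had 12 (CNTNAP4) to 37 (BCAN) DKO reads, and their mean WT level was 14.2 times (PRELP) to 87.2 times (SPAG16) the DKO level.

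**Figure D2:**
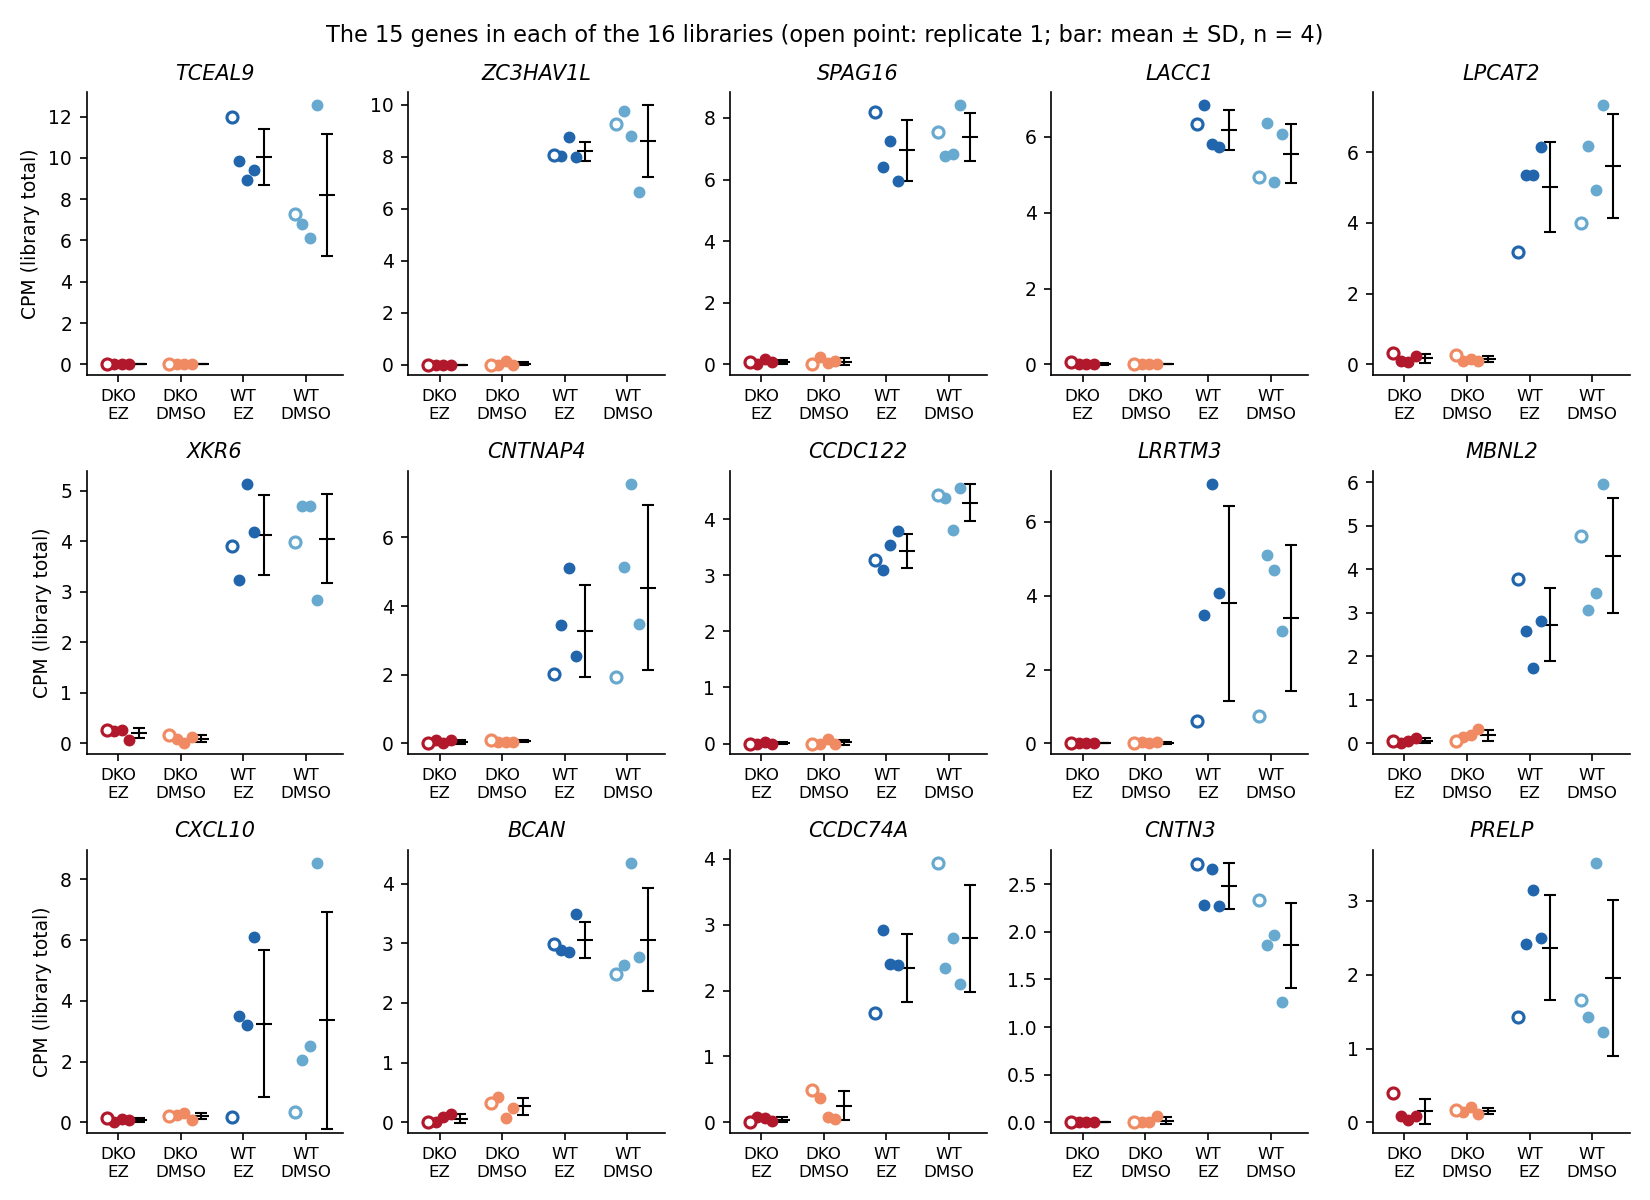
CPM on library totals (vertical axes, a scale for each gene) of the 15 genes in the 16 libraries, by group; points are libraries, open points are replicate 1, and bars are the mean ± SD of 4 libraries. DKO libraries sit at or below 0.498 CPM in every panel, and the open WT points of LRRTM3 and CXCL10 lie far below the other WT points.

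The genes nearest to the limits show how the choice falls. Just inside the WT limit were PRELP with a WT mean of 2.16 CPM, CNTN3 with 2.17 CPM and CCDC74A with 2.57 CPM, and just outside it were FCAMR with 1.92 CPM, LHX6 with 1.88 CPM and H4C16 with 1.81 CPM. Just inside the DKO limit were LPCAT2 with a DKO mean of 0.167 CPM, BCAN with 0.164 CPM and PRELP with 0.153 CPM. Just outside it were IFITM1 with 0.259 CPM, PCDHB12 with 0.305 CPM and TGFBR2 with 0.307 CPM. FUCA2, a fucosidase proposed as a marker of this gene set, also fell outside. It had 0.787, 0, 0.227 and 0.420 CPM in DKO EZ and 0.222, 0.0928, 0.569 and 0.283 CPM in DKO DMSO libraries, against 26.7, 35.3, 33.4 and 43.8 CPM in WT EZ and 25.6, 30.1, 31.5 and 35.1 CPM in WT DMSO libraries. Its DKO and WT values were far apart, and its DKO mean of 0.325 CPM was above the limit.

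TCEAL9 on chromosome X belongs to the TCEAL family of small proteins related to transcription elongation factor A. It had 0, 0, 0 and 0.0210 CPM in DKO EZ and 0 in all 4 DKO DMSO libraries, against 11.97, 9.86, 8.94 and 9.39 CPM in WT EZ and 7.29, 6.82, 6.13 and 12.6 CPM in WT DMSO libraries. A sole read was thus counted over 8 DKO libraries (exact 95% Poisson interval 0.0253 to 5.57 reads, counting error only). ZC3HAV1L on chromosome 7 is a shorter relative of the zinc finger antiviral protein ZC3HAV1. It had no read in DKO EZ libraries and 0, 0, 0.122 and 0 CPM in DKO DMSO libraries, against 8.06, 8.05, 8.76 and 7.98 CPM in WT EZ and 9.28, 9.75, 8.81 and 6.63 CPM in WT DMSO libraries. All 3 of its DKO reads came from replicate 3 of DKO DMSO, and the WT libraries differed little among themselves. Where all 4 libraries of a DKO group had no read, 3 reads over the group would have been 0.0284 CPM in DKO EZ and 0.0282 CPM in DKO DMSO.

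Genes of innate immunity and lipid metabolism came next. LACC1 on chromosome 13 encodes a purine nucleoside enzyme known from macrophages, where it works beside fatty acid synthase. It had 0.0656, 0, 0 and 0 CPM in DKO EZ and 0 in all DKO DMSO libraries, against 6.35, 6.84, 5.80 and 5.74 CPM in WT EZ and 4.96, 6.38, 4.82 and 6.07 CPM in WT DMSO libraries. LPCAT2 on chromosome 16 encodes an acyltransferase that makes platelet-activating factor and remodels membrane phospholipids. It kept a low level throughout, with 0.328, 0.0846, 0.0648 and 0.231 CPM in DKO EZ and 0.277, 0.0928, 0.163 and 0.0945 CPM in DKO DMSO libraries, against 3.18, 5.34, 5.36 and 6.14 CPM in WT EZ and 3.99, 6.17, 4.94 and 7.33 CPM in WT DMSO libraries. CXCL10 on chromosome 4, an interferon-induced chemokine that attracts T cells, had 0.131, 0, 0.0972 and 0.0840 CPM in DKO EZ and 0.222, 0.232, 0.325 and 0.0708 CPM in DKO DMSO libraries, against 0.184, 3.49, 3.22 and 6.12 CPM in WT EZ and 0.340, 2.06, 2.50 and 8.52 CPM in WT DMSO libraries. It was the only one of the 15 whose genotypes overlapped, through replicate 1 of WT EZ and WT DMSO.

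Genes of cell adhesion and extracellular matrix, most of them known from the nervous system, made up another group. CNTNAP4 on chromosome 16, a neurexin-like adhesion protein, had 0, 0.0846, 0 and 0.105 CPM in DKO EZ and 0.111, 0.0464, 0.0406 and 0.0472 CPM in DKO DMSO libraries, against 2.03, 3.44, 5.10 and 2.54 CPM in WT EZ and 1.94, 5.14, 7.56 and 3.47 CPM in WT DMSO libraries. LRRTM3 on chromosome 10, a leucine-rich synaptic adhesion protein, had 0 in all DKO EZ libraries and 0, 0.0464, 0 and 0.0472 CPM in DKO DMSO libraries, against 0.599, 3.49, 7.02 and 4.06 CPM in WT EZ and 0.729, 5.10, 4.70 and 3.05 CPM in WT DMSO libraries. For both genes the DKO values stayed below every WT value, and the WT values spread widely. CNTN3 on chromosome 3, a contactin attached to the neuronal surface by a lipid anchor, had 3 DKO reads, all in replicate 4 of DKO DMSO, and 1.26 to 2.72 CPM in WT libraries. BCAN on chromosome 1, brevican, a proteoglycan of the brain matrix, reached at most 0.418 CPM in DKO and ran from 2.48 to 4.34 CPM in WT libraries. PRELP on chromosome 1, a leucine-rich proteoglycan that ties basement membrane to connective tissue, reached at most 0.394 CPM in DKO and had 1.23 to 3.51 CPM in WT libraries.

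The remaining genes have varied roles. SPAG16 on chromosome 2 encodes a protein of the central apparatus of cilia and sperm tails. It had 0.0656, 0, 0.162 and 0.0630 CPM in DKO EZ and 0, 0.232, 0.0406 and 0.0945 CPM in DKO DMSO libraries, against 8.20, 6.41, 7.24 and 5.95 CPM in WT EZ and 7.53, 6.75, 6.84 and 8.42 CPM in WT DMSO libraries. XKR6 on chromosome 8 belongs to the XK-related membrane proteins, some of which scramble phospholipids. It had 0.262, 0.254, 0.259 and 0.0630 CPM in DKO EZ and 0.166, 0.0928, 0 and 0.118 CPM in DKO DMSO libraries, against 3.91, 3.23, 5.14 and 4.19 CPM in WT EZ and 3.99, 4.70, 4.70 and 2.84 CPM in WT DMSO libraries. Both genes had narrow WT ranges, with a coefficient of variation over 8 WT libraries of 11.9% for SPAG16 and 18.9% for XKR6. CCDC122 on chromosome 13, a coiled-coil protein, had 0, 0, 0.0324 and 0 CPM in DKO EZ and 0, 0, 0.0813 and 0 CPM in DKO DMSO libraries, against 3.27, 3.10, 3.55 and 3.79 CPM in WT EZ and 4.42, 4.38, 3.81 and 4.56 CPM in WT DMSO libraries. MBNL2 on chromosome 13, a muscleblind regulator of alternative splicing, reached at most 0.331 CPM in DKO and had 1.74 to 5.96 CPM in WT libraries. CCDC74A on chromosome 2 had 1.66 to 3.94 CPM in WT libraries; its near-identical copy CCDC74B had 0 to 0.278 CPM in DKO and 0.271 to 0.972 CPM in WT libraries, so the split of reads between the copies is uncertain.

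Levels can be compared between genes only per length. Per kilobase of annotated exon, the mean WT level was 4.80 CPM for ZC3HAV1L, 4.62 CPM for TCEAL9, 2.81 CPM for CXCL10 and 1.29 CPM for LACC1. It lay between 0.376 CPM (PRELP) and 0.868 CPM (SPAG16) per kilobase for the other 11 genes.

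WT libraries split by replicate number for some of the genes and not for others. In replicate 1 of WT EZ and WT DMSO, LRRTM3 had 0.599 and 0.729 CPM, against 3.05 to 7.02 CPM in the other 6 WT libraries. CXCL10 had 0.184 and 0.340 CPM there, against 2.06 to 8.52 CPM. LPCAT2 and CNTNAP4 were also below the other 6, LPCAT2 with 3.18 and 3.99 CPM against 4.94 to 7.33 CPM, and CNTNAP4 with 2.03 and 1.94 CPM against 2.54 to 7.56 CPM. These 4 of the 15 did not overlap between the replicate 1 libraries and the others, beside 13.4% of all tested genes in either direction. The other 11, TCEAL9, ZC3HAV1L, SPAG16 and LACC1 among them, overlapped. The same 2 libraries held 0.550% (WT EZ) and 0.235% (WT DMSO) RN7SL1, and the part of what they share in these low values was not tested.

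Enzalutamide was not seen to move any of the 15 genes in WT cells. By edgeR's quasi-likelihood test with Benjamini-Hochberg adjustment over all tested genes, 0 of 15 passed an adjusted p of 0.05, beside 3.32% of all tested genes (2.25% higher, 1.07% lower). None of the 15 reached an unadjusted p under 0.05, beside 15.6% of all tested genes, and none was called by DESeq2 (5.7% of all) or with replicates as pairs. The estimates were higher under EZ for 8 genes and lower for 7, with a median log2 fold change of 0.012 for the 15 and -0.029 for all tested genes. Standard errors of 0.27 to 0.78 left room for changes: the 95% interval lay within a log2 change of 1 in either direction for 8 genes (TCEAL9, ZC3HAV1L, SPAG16, LACC1, LPCAT2, XKR6, CCDC122 and BCAN) and beyond it for the other 7.

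**Figure D3:**
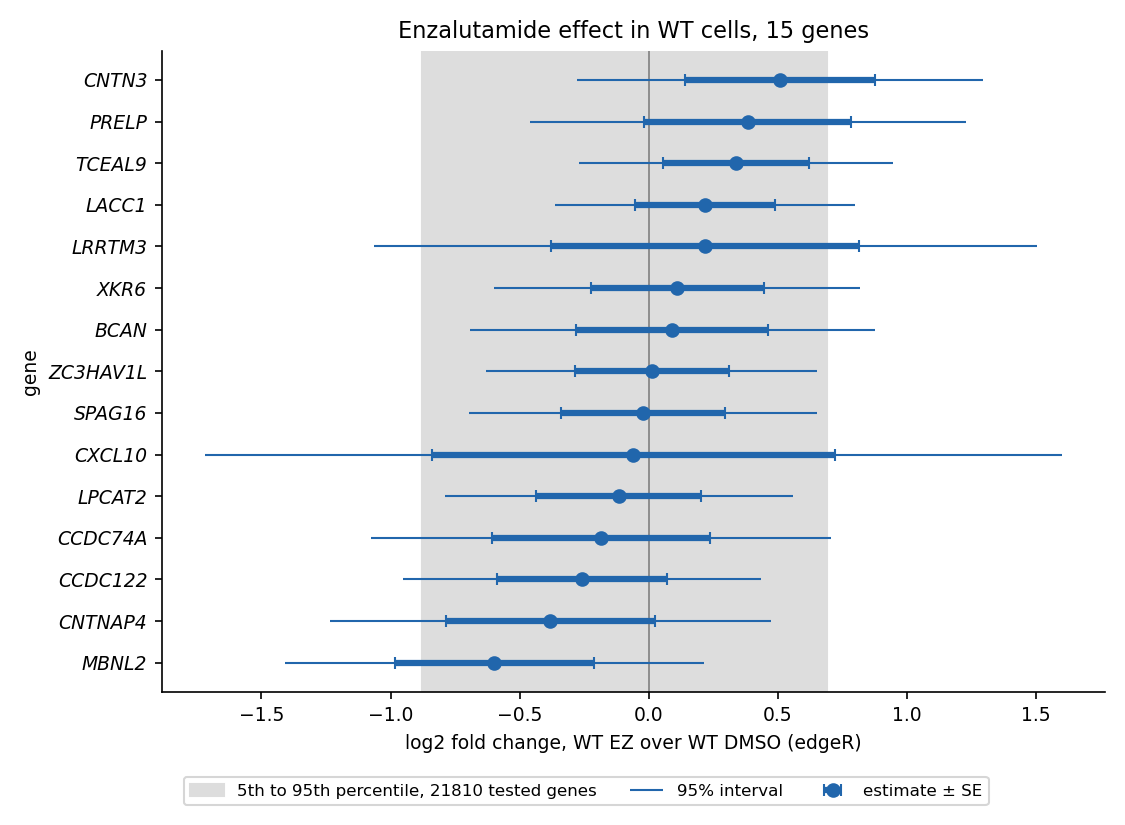
Log2 fold change of WT EZ over WT DMSO (horizontal axis, edgeR) for the 15 genes (vertical axis); points are estimates, thick bars ± SE, thin lines 95% intervals, and the grey band spans the 5th to 95th percentile of all tested genes (-0.88 to 0.69). All 15 estimates lie inside the band and all intervals cross 0.

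The largest estimates in each direction belonged to MBNL2 and CNTN3. MBNL2 had 3.78, 2.58, 1.74 and 2.81 CPM in WT EZ and 4.76, 3.06, 3.45 and 5.96 CPM in WT DMSO libraries. It was lower under EZ in 4 of 4 pairs of like-numbered replicates while the groups overlapped, with a log2 fold change of -0.60 ± 0.38 (SE, adjusted p = 0.504, edgeR). CNTN3 had 2.72, 2.28, 2.66 and 2.27 CPM in WT EZ and 2.33, 1.87, 1.96 and 1.26 CPM in WT DMSO libraries. It was higher under EZ in 4 of 4 pairs, with overlapping groups and a log2 fold change of 0.51 ± 0.37 (adjusted p = 0.572, edgeR). With replicates as pairs within WT, the adjusted p of edgeR was 0.101 for MBNL2 and 0.143 for CNTN3, while the share of all tested genes called grew to 12.1%.

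CCDC122 was the only one of the 15 whose WT EZ libraries (3.10 to 3.79 CPM) did not overlap its WT DMSO libraries (3.81 to 4.56 CPM), beside 10.0% of all tested genes. Its log2 fold change was -0.26 ± 0.33 (adjusted p = 0.782, edgeR). LACC1, its head-to-head partner, had an estimate of the other sign, 0.22 ± 0.27. TCEAL9 averaged 10.0 ± 1.34 CPM in WT EZ and 8.20 ± 2.95 CPM in WT DMSO libraries (SD, n = 4 each), with a log2 fold change of 0.34 ± 0.28 (adjusted p = 0.642, edgeR), and was higher in 3 of 4 pairs. ZC3HAV1L (0.012 ± 0.30) and SPAG16 (-0.022 ± 0.32) had the estimates nearest to 0. CXCL10 had the widest error, -0.060 ± 0.78, and its estimate was 1.19 without replicate 4 of WT DMSO.

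In DKO cells the choice itself kept the 15 genes near 0 under EZ as well as DMSO, so only a small difference in CPM between the treatments was possible. The log2 fold changes were not bound in this way. They were lower under EZ for 11 genes and higher for 4, from -2.74 to 1.59 with a median of -0.70, and had standard errors of 0.52 to 2.02. By edgeR 0 of 15 passed the adjusted threshold, beside 1.48% of all tested genes, and DESeq2 called none (3.72% of all). ZC3HAV1L, BCAN, CCDC74A and CNTN3 reached an unadjusted p under 0.05, which 13.3% of all tested genes did. All 4 were lower under EZ, and few reads lay behind them: CCDC74A had 4 reads in DKO EZ and 21 in DKO DMSO libraries, BCAN 10 and 27, and ZC3HAV1L and CNTN3 0 and 3 each. The smallest adjusted p of the 15 was 0.154 (CCDC74A, edgeR), and no gene of the 15 was free of overlap between DKO EZ and DKO DMSO libraries, beside 10.8% of all tested genes.

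The 15 genes lay on 10 chromosomes (GRCh38, GENCODE v29), with LACC1, CCDC122 and MBNL2 on chromosome 13. Their nearest protein-coding neighbours on each side were 28 genes, of which 17 passed the filter on low counts. In DMSO, 4 of the 17 were lower in DKO (23.5%, against a background of 9.7% of all tested genes by edgeR at an adjusted p under 0.05) and 2 were higher (11.8%, background 8.91%). In EZ, 5 were lower (29.4%, background 11.4%) and 2 higher (11.8%, background 9.29%). The neighbours lower with both treatments were CTNNA3, CXCL11, MON1B and ZC3HAV1 (23.5%, background 7.09%), and those higher with both were IKZF2 and NES (11.8%, background 6.43%). Nothing is read from the shares of lower neighbours, since CTNNA3 is one of the 6 genes set aside and met the limits itself, and CXCL11, with a DKO mean of 0.121 CPM, passed the filter on low counts through the WT libraries. Nor is anything read from the shares of higher neighbours. NES, with a WT mean of 0.390 CPM, passed that filter mainly through the DKO libraries.

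**Figure D4:**
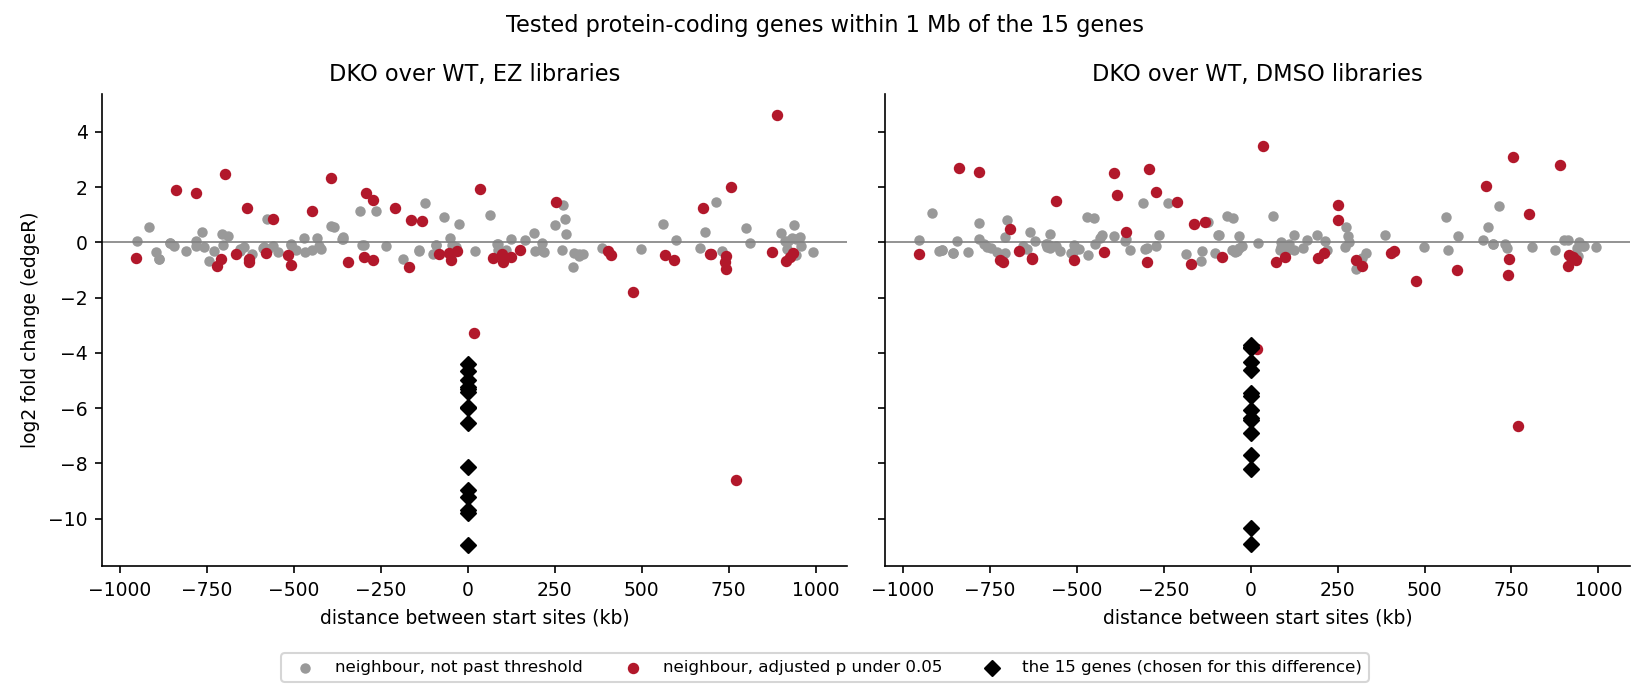
Log2 fold change of DKO over WT (vertical axes, edgeR) of tested protein-coding genes within 1000 kb of the 15 genes, by the distance between start sites in kb (horizontal axes; negative is lower coordinates), in EZ libraries (left) and DMSO libraries (right). Diamonds at 0 are the 15 genes, chosen for this difference; the lowest neighbours are CTNNA3 770 kb and CXCL11 18 kb away, and the highest are GPR39 in EZ (4.61) and NES in DMSO (3.49).

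ZC3HAV1, the zinc finger antiviral protein, starts 73.7 kb from its relative ZC3HAV1L and remained well expressed. It had 165, 210, 232 and 219 CPM in DKO EZ and 212, 165, 190 and 148 CPM in DKO DMSO libraries, against 180, 296, 319 and 260 CPM in WT EZ and 235, 258, 292 and 224 CPM in WT DMSO libraries. The DMSO groups did not overlap and the EZ groups did, with log2 fold changes of -0.70 ± 0.14 in DMSO (adjusted p = 0.00199, edgeR) and -0.58 ± 0.14 in EZ (adjusted p = 0.00724). The call in EZ was lost when libraries were scaled by their totals (adjusted p = 0.137). CXCL11, the chemokine gene 17.9 kb from CXCL10, had 0.197, 0, 0.194 and 0.105 CPM in DKO EZ and 0.0554, 0.186, 0.163 and 0.0708 CPM in DKO DMSO libraries, against 0.0921, 1.59, 1.22 and 1.62 CPM in WT EZ and 0.243, 0.629, 0.774 and 4.03 CPM in WT DMSO libraries. It was low in the same replicate 1 libraries as CXCL10, and its log2 fold changes were -3.86 ± 0.94 in DMSO (adjusted p = 0.00759, edgeR) and -3.28 ± 0.93 in EZ (adjusted p = 0.0182). The EZ call was lost without replicate 2 (adjusted p = 0.0535) or 4 (0.0664) of DKO EZ, without replicate 4 of WT EZ (0.0564) and with no filter on low counts (0.0691).

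MON1B, which acts in endosome maturation, starts 914 kb from CNTNAP4 and averaged 52.5 CPM in DKO and 77.0 CPM in WT libraries, with log2 fold changes of -0.85 ± 0.16 in DMSO (adjusted p = 0.00143, edgeR) and -0.69 ± 0.16 in EZ (adjusted p = 0.00625; 0.0962 in the 10 libraries low in RN7SL1). NES, which encodes the intermediate filament nestin and starts 36.0 kb from BCAN, went the other way. It averaged 3.06 CPM in DKO and 0.390 CPM in WT libraries, with log2 fold changes of 3.49 ± 0.47 in DMSO and 1.93 ± 0.44 in EZ (adjusted p = 5.19e-05 and 0.00439, edgeR). NES owed its place in the test mainly to the DKO libraries, where it is high, so nothing is read from its calls. Several other close neighbours did not pass the test. BEX3, 19.9 kb from TCEAL9, averaged 139 CPM in DKO and 134 CPM in WT libraries, with log2 fold changes of -0.032 ± 0.14 in DMSO and -0.32 ± 0.14 in EZ, without passing with either. MTMR9, 83.0 kb from XKR6, averaged 76.7 CPM in DKO and 74.1 CPM in WT libraries and passed the test with neither treatment, as did RAP2A, 213 kb from MBNL2, and MZT2A, 34.9 kb from CCDC74A.

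LACC1 and CCDC122 lie head to head, with GENCODE start sites 443 bases apart, and their exons overlap by 97 bases. Reads in that overlap could go to either gene, since the strand setting of the counting is not given in the sources used here. The nearest other protein-coding gene at higher coordinates is AL512506.3, which starts 4.52 kb from LACC1 on the same strand. It shares 646 exon bases with LACC1, so that reads there are uncertain too. AL512506.3 averaged 0 CPM in DKO and 0.110 CPM in WT libraries and did not pass the filter on low counts. At lower coordinates the nearest is ENOX1, which starts 92.4 kb from LACC1. ENOX1 averaged 8.13 CPM in DKO and 6.62 CPM in WT libraries and did not pass the test. RB1, a gene targeted in the DKO cells, starts 4.42 Mb further along chromosome 13, and the stretch between was looked at after these values had been seen. Of its 26 protein-coding genes, 19 were tested: in DMSO 2 were lower (background 9.7%) and 3 higher (8.91%) in DKO, and in EZ 5 were lower (11.4%) and 3 higher (9.29%). The lowest log2 fold change among them was -1.06 in DMSO and -0.82 in EZ, both for KCTD4, so no tested gene of the stretch came near the values of LACC1 or CCDC122.

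**Figure D5:**
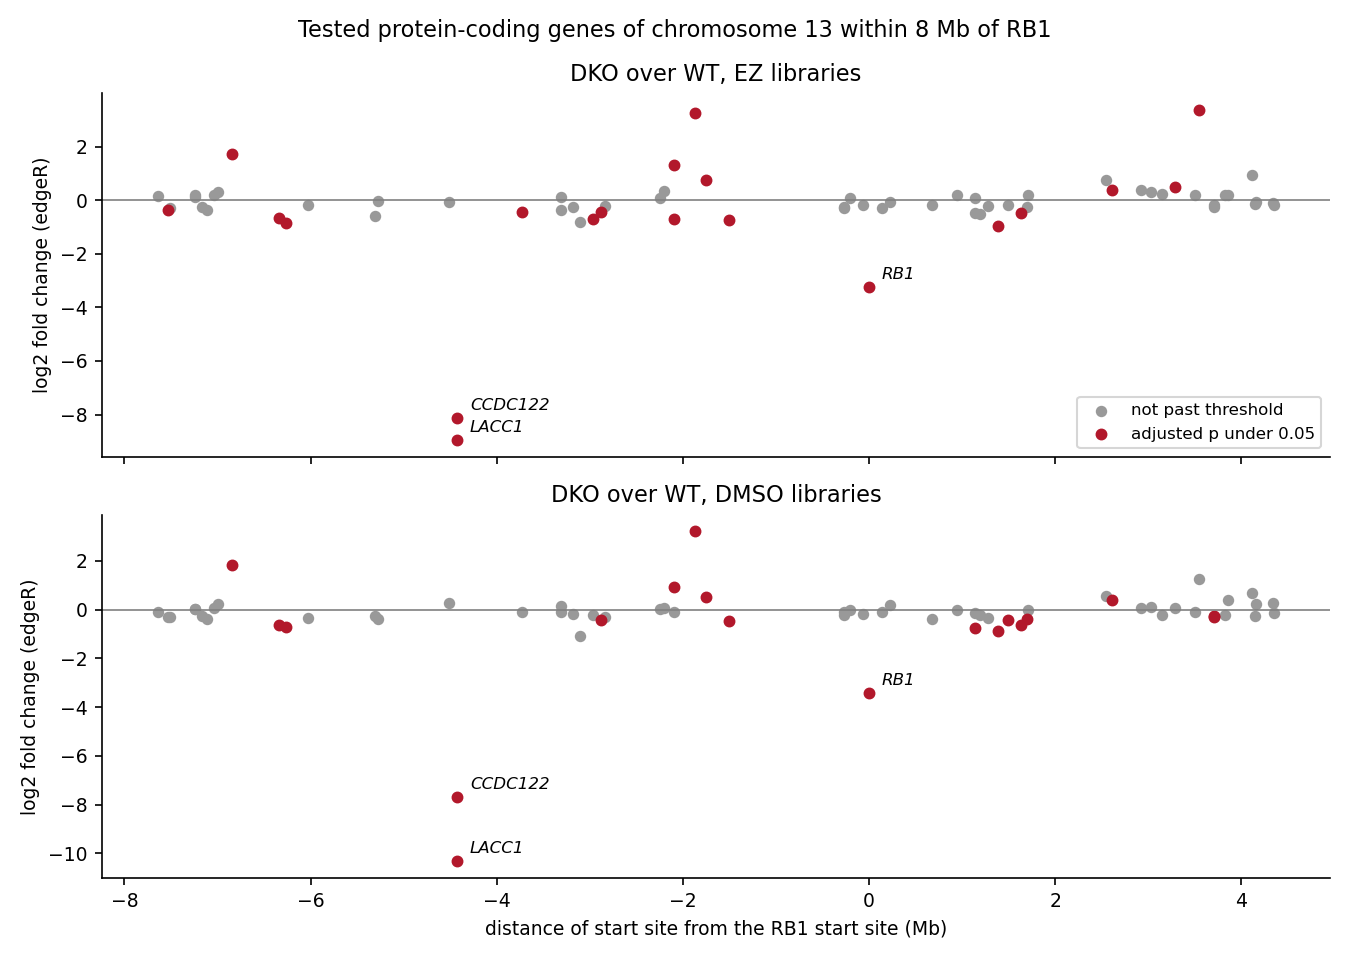
Log2 fold change of DKO over WT (vertical axes, edgeR) of tested protein-coding genes on chromosome 13 by the distance of their start site from that of RB1 in Mb (horizontal axis), in EZ libraries (top) and DMSO libraries (bottom); red points passed an adjusted p of 0.05. LACC1 and CCDC122 stand alone 4.42 Mb from RB1, and no tested gene between them and RB1 is below -1.06.

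Noncoding genes that overlap the 15 genes or start head to head with them numbered 20, and 10 of them passed the filter on low counts. Those 10 had DKO means of 0 to 0.499 CPM and passed through the WT libraries, so that a lower level in DKO was set by the filter, and their values are a description. The other 10 averaged at most 0.173 CPM in WT libraries; 2 of them inside SPAG16 were at like levels in both genotypes, AC068051.1 with 0.110 CPM in DKO and 0.136 CPM in WT libraries and RPL5P8 with 0.0422 CPM in DKO and 0.0510 CPM in WT libraries. Inside XKR6 lie 5 of the 10 that passed the filter, AF131215.5 among them with 0.217 CPM in DKO and 6.68 CPM in WT libraries. None of the 5 shares exon bases with XKR6. BCAN-AS1, which starts 386 bases from BCAN on the other strand, averaged 0.155 CPM in DKO and 11.3 CPM in WT libraries. AL365181.3, antisense inside BCAN, averaged 0.499 CPM in DKO and 25.1 CPM in WT libraries. It shares 328 exon bases with BCAN, and BCAN-AS2 shares 354, so that reads of these genes could not be told apart. LRRTM3 lies inside CTNNA3 on the other strand without shared exon bases. CTNNA3 had 0.0656 to 0.331 CPM in DKO and 3.55 to 64.0 CPM in WT libraries, and AL139240.1, also in LRRTM3, averaged 0.00820 CPM in DKO and 0.809 CPM in WT libraries. SPAG16-DT, head to head with SPAG16 at 174 bases, had no read in DKO and averaged 0.00262 CPM in WT libraries.

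Relatives of the 15 genes were read from 4 lists. Among TCEAL and BEX genes other than TCEAL9, 10 of 13 were tested, and those that passed were higher in DKO (background 8.91% in DMSO and 9.29% in EZ). BEX1 was higher with both treatments, with log2 fold changes of 2.64 ± 0.54 in DMSO (adjusted p = 0.00254, edgeR) and 1.77 ± 0.53 in EZ (adjusted p = 0.0248), and TCEAL3 in DMSO (0.81 ± 0.27, adjusted p = 0.0418), with 0.64 ± 0.26 in EZ (adjusted p = 0.0996). Among 9 relatives and partners of the zinc finger antiviral protein, ZC3HAV1, PARP10, PARP12 and TRIM25 were lower in DKO with both treatments and PARP9 in EZ, while PARP14 was higher with both; as for the 2 lists that follow, the background of lower genes was 9.7% in DMSO and 11.4% in EZ. PARP12 averaged 35.2 CPM in DKO and 80.8 CPM in WT libraries, and PARP14 18.0 CPM in DKO and 2.05 CPM in WT libraries. With scaling by library totals, ZC3HAV1 and PARP9 lost their EZ calls and KHNYN was called higher in EZ.

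Among 17 glycosidases, most of them lysosomal, FUCA2 was lower in DKO with both treatments (log2 fold changes of -6.86 ± 0.43 in DMSO and -6.77 ± 0.43 in EZ, though it was proposed as a marker on these data), IDUA in DMSO and GLA in EZ. FUCA1, the paralog of FUCA2, had 34.9, 33.2, 36.5 and 37.3 CPM in DKO EZ and 30.8, 28.5, 29.9 and 29.9 CPM in DKO DMSO libraries, against 32.9, 34.2, 29.5 and 32.4 CPM in WT EZ and 28.8, 24.8, 20.4 and 28.6 CPM in WT DMSO libraries. The genotypes overlapped with both treatments, and it passed the test with neither treatment. Of 6 enzymes that work beside LACC1, FASN and MTAP were lower in DKO with both treatments and ADA in EZ. MTAP lost its EZ call under every other scaling. With scaling by library totals FASN alone of the 6 stayed lower, HPRT1 was called higher in DMSO and GUSB with both treatments, MAN2B2 was called higher in EZ, and IDUA and GLA were no longer called. FASN, fatty acid synthase, averaged 1344 CPM in DKO and 2310 CPM in WT libraries. Under EZ in WT cells, MAN2B2 (log2 fold change 0.56 ± 0.13, adjusted p = 0.0274, edgeR) and ZC3H12A (1.49 ± 0.22, adjusted p = 0.00125) were the only genes of these 4 lists to pass the test, both higher. In the 10 libraries low in RN7SL1, the calls of TCEAL3, IDUA, GLA, MTAP, ADA and MAN2B2, of BEX1 in EZ and of FASN in DMSO were lost.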

How the data were processed

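Counts per gene were analysed for 16 total RNA libraries, 4 in each of 4 groups assigned from the sample titles. The deposited values are the authors' raw read counts, whole numbers for each Ensembl gene ID. STAR 2.7.3a and GRCh38 are named per the submitters' processing notes, with the counting tool, strand setting and annotation not given in the sources used here, so that reads of overlapping, antisense or near-identical genes are uncertain. Positions and gene types are from GENCODE v29, and promoter sequences from RefSeq (GRCh38.p14).

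CPM used column totals (11823438 to 47678648 counts). All genes with enough counts by filterByExpr (minimum count 10, minimum total 15), 21810 in all, were fitted in edgeR 4.0.16 (R 4.3.3) with TMM scaling, 1 mean per group over all 16 libraries and the quasi-likelihood test; p-values were adjusted over all tested genes by Benjamini-Hochberg and 0.05 was the threshold. DESeq2 1.42.0 was an alternative, as were other scalings, no filter, replicate blocks, a term for high RN7SL1 and leaving out each library. The code was tested on simulated data. Replicate pairs of a group differed by 4.87 to 88.6 in chi-square per degree of freedom, so none was merged. Like-numbered EZ and DMSO libraries deviated together within DKO (correlation 0.403 to 0.664) and within WT (0.326 to 0.625), so the numbers pair them within a genotype; across genotypes (-0.067 to 0.674) replicate 2 had -0.067 in DMSO and -0.052 in EZ and the others at least 0.229, so the numbers were not taken as pairs there. Intervals on reads and the floor of 3 reads cover counting error only.

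The 15 genes and all gene lists were chosen with earlier results of these data known. Every one of the 15 is named; values per library are given for TCEAL9, LACC1, ZC3HAV1L, FUCA2, the 6 others with the highest WT mean and any genes lying together, with 3 genes on each side of each limit, neighbours lower in DKO with both treatments, and head-to-head partners. CXCL10, MBNL2, CNTN3, FUCA1 and other neighbours were added after their values were seen. Some genes are not reported here.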

Additional observations from a re-analysis of the deposited data

Results flagged for a closer look

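In 11 of the 60 sets of 4 libraries (15 genes in 4 groups) a library stood apart from the other 3 by Dixon's test at the 95% level. The test flags about 1 in 20 sets by chance for continuous values only. A set with 3 libraries at 0 reads and 1 above 0 is always flagged, as for TCEAL9, LACC1, ZC3HAV1L, CCDC122 and CNTN3 in DKO. The 11 can thus not be set against that rate. In DKO cells 9 were flagged, on 1 to 6 reads each. These were TCEAL9 in DKO EZ replicate 4 (0.0210 CPM), LACC1 in DKO EZ replicate 1 (0.0656 CPM), XKR6 in DKO EZ replicate 4 (0.0630 CPM, below the others), CCDC122 in DKO EZ replicate 3 (0.0324 CPM) and PRELP in DKO EZ replicate 1 (0.394 CPM). In DKO DMSO they were ZC3HAV1L in replicate 3 (0.122 CPM), CNTNAP4 in replicate 1 (0.111 CPM), CCDC122 in replicate 3 (0.0813 CPM) and CNTN3 in replicate 4 (0.0708 CPM). In WT cells ZC3HAV1L stood apart in WT EZ replicate 3 with 8.76 CPM, against 7.98 to 8.06 CPM in the other WT EZ libraries. BCAN stood apart in WT DMSO replicate 3 with 4.34 CPM, against 2.48 to 2.77 CPM in the other WT DMSO libraries.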

How the results depend on the processing

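The number of genes chosen was 5 with a WT limit of 5 CPM, 29 with a WT limit of 1 CPM, 8 with a DKO limit of 0.1 CPM and 29 with a DKO limit of 0.5 CPM; it was 17 with TMM-scaled library sizes and 14 to 16 when each library was left out. The EZ libraries alone gave 15, of which 14 were shared, and the DMSO libraries alone gave 13, of which 10 were shared: BCAN, CCDC74A, CNTN3, CXCL10 and PRELP dropped out and FLRT2, H4C16 and TGFBR2 came in. No gene of the 15 was called under EZ in WT in any of 390 estimates over 26 alternatives, with a lowest adjusted p of 0.101 (MBNL2, replicate block within genotype). In 24 of these the sign turned. ZC3HAV1L gave -0.011 with the 8 WT libraries only, -0.070 with library totals, -0.024 with no filter and -0.058 with upper-quartile scaling. CXCL10 gave 0.081 with the replicate block and 0.15 with the block within genotype. In the 10 libraries low in RN7SL1, an alternative added after seeing the data, BCAN gave -0.014 and CCDC74A 0.13. Leaving out each library gave -0.025 to 0.092 for ZC3HAV1L, -0.15 to 0.14 for SPAG16, -0.25 to 0.15 for LPCAT2, -0.17 to 0.58 for LRRTM3, -0.63 to 1.19 for CXCL10 and -0.27 to 0.070 for CCDC74A. Over all genes, 724 were called under EZ in WT; 294 were with the 8 libraries only, 1243 with DESeq2, 371 in the libraries low in RN7SL1, 436 with no filter, 1724 with the replicate block, 2641 with the block within genotype, and 304 to 1051 with each library left out. In DKO 322 were called; 812 were with DESeq2, 519 with a term for RN7SL1, 13 in the libraries low in RN7SL1, 167 with no filter, 1104 with the replicate block, 1691 with the block within genotype, and 73 to 451 with each library left out. The pairing called none of the 15. Of the 17 tested nearest neighbours, 4 were lower (23.5%) and 2 higher (11.8%) in DMSO. Of 41 tested genes within 250 kb these counts were 7 (17.1%) and 4 (9.76%), and of the 28 nearest tested genes 5 (17.9%) and 5 (17.9%). In the libraries low in RN7SL1, 1 nearest neighbour was higher in DMSO. In EZ 5 of the 17 were lower (29.4%) and 2 higher (11.8%). Within 250 kb the EZ counts were 11 (26.8%) and 4 (9.76%), and among the nearest tested genes 9 (32.1%) and 4 (14.3%). With library totals or in the libraries low in RN7SL1, 3 were lower in EZ. Leaving out each library gave 3 to 5 lower in EZ, with 3 without replicate 2 or 4 of DKO EZ or replicate 4 of WT EZ. The sets differ in size, and the cause of the other changes was not tested. Library totals moved the median log2 fold change of all tested genes to -0.10 for EZ in WT, 0.14 for DKO against WT in DMSO and 0.23 in EZ. With at most 3 DKO reads for 6 genes, a further decrease under EZ in DKO could not be detected for them at this depth.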

Other observations

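Among genes that GENCODE v29 lists as noncoding and outside chromosome Y, 4 met the same limits. BCAN-AS1 averaged 0.155 CPM in DKO and 11.3 CPM in WT libraries. AF131215.6 inside XKR6 averaged 0.0277 CPM in DKO and 2.60 CPM in WT libraries, AC097478.1 on chromosome 4 averaged 0.0512 CPM in DKO and 2.53 CPM in WT libraries, and LINC00632 on chromosome X averaged 0.154 CPM in DKO and 2.41 CPM in WT libraries. BCAN-AS1 and AF131215.6 lie at loci of the 15 genes, and these values are a description, since the DKO and WT means chose them.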
